A study of Homo sapiens with 12 samples.

Results

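The ATF4 and unfolded protein response genes are 41 genes listed by symbol, among the 57773 gene identifiers of the deposited expression table. All 41 were found in it by current or older symbol. They fall into an ATF4 and amino acid arm of 23 genes and an endoplasmic reticulum (ER) chaperone arm of 18 genes. The study used RPE1, an immortalised human cell line derived from retinal pigment epithelium. Cells received siRNA against Anillin (ANLN), a scaffold of the contractile ring, or a non-targeting siRNA, each for 24 h with a lipid carrier. They were then kept at 37 °C for 60 min with 2 µg/mL of Hoechst 33342, a DNA dye, and separated in a cell sorter by their DNA content. The 4 groups of 3 RNA-seq libraries were control siRNA with 2N DNA content (control 2N), control siRNA with 4N (control 4N), Anillin siRNA with 2N (Anillin 2N) and Anillin siRNA with 4N (Anillin 4N). All 4 groups had been transfected, stained and sorted, so no group shows untouched cells. A 4N gate can hold cells in G2 and mitosis as well as G1 cells that failed to divide, and the number of siRNA sequences is not given in the sources used here. The labels call the samples of a group biological replicates without naming separate cultures. If they came from the same culture, the p-values reflect technical spread only. Libraries are numbered 1 to 3 within a group for naming.

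ATF4 is a transcription factor of the integrated stress response. Kinases that sense amino acid shortage, unfolded ER proteins, haem shortage or viral RNA phosphorylate the translation factor eIF2, which slows most translation but allows ATF4 to be made from its messenger RNA. ATF4 then binds, with C/EBP partners, at genes for amino acid uptake and synthesis, transfer RNA charging and stress adaptation. The unfolded protein response has a second side run by the ER sensors IRE1 (gene ERN1) and ATF6, with the factor XBP1, which induce ER chaperones and the machinery that removes misfolded proteins. Because ATF4 is controlled largely at translation, and XBP1 and ATF6 by splicing and cleavage, the amounts of their messenger RNAs do not report the activity of the proteins. The values below are amounts of messenger RNA only.

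Reads in genes numbered 17412742 to 61760450 per library. ANLN, the siRNA target, was at 1.25 to 1.88 RPKM in control 2N, 7.45 to 8.42 in control 4N, 0.0395 to 0.0850 in Anillin 2N and 0.0700 to 0.0989 in Anillin 4N. RPKM here means reads scaled to library size (RPM) and divided by genomic span in kilobases, introns included. The summed RPKM of 8 G2 and mitosis genes was 27.1 to 40.7 in control 2N, 233 to 267 in control 4N, 10.6 to 11.4 in Anillin 2N and 34.2 to 37.1 in Anillin 4N, and within each comparison all 8 passed the test in the same direction. The summed RPKM of 4 p53 target genes was 32.8 to 35.5, 36.0 to 42.1, 51.0 to 56.2 and 108 to 112 in the same order. Of 10 markers of retinal pigment epithelium, 4 (OTX2, KRT8, KRT18 and VIM) passed 0.5 RPKM in some library. The pigment and visual cycle markers RPE65, RLBP1, BEST1, TYR, PMEL and MITF stayed below that level in every library. The level is per kilobase of genomic span, which lowers long genes such as MITF (span 228903 bases, exons 7181), so it does not show absence. Of the 10, 9 had enough reads (at least 10 in 3 libraries) to be tested on reads. Of 6 blood markers CD68 alone passed 0.5 RPKM and HBB and CD3E were at 0, and of 6 markers of other epithelia and muscle 0 passed. Library 2 of control 2N stood farthest from its group: its reads differed from those of the other control 2N libraries by a chi-square per degree of freedom of 11.4 and 14.5, against 5.69 between those other libraries. In control 4N library 2 also stood apart, by 7.56 and 6.43 from libraries 1 and 3, against 3.05 between them.

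Levels can be compared between genes only per length, and were therefore also computed as RPM per kilobase of exon. How genes were counted is not given, so reads from introns or overlapping genes, if counted, would raise these values unevenly. In control 2N on that scale, the 5 most abundant members were ER chaperones and folding enzymes. CALR, the lectin-like chaperone calreticulin, stood at 482 ± 3.62 (SD, n = 3). HSP90B1, the ER member of the HSP90 family, stood at 380 ± 14.2 and HSPA5, the ER HSP70 chaperone also called BiP, at 293 ± 15.9. These 3 were separated from each other by more than their spread. CANX, the membrane-bound relative of calreticulin, at 123 ± 3.70 and PDIA6, a protein disulfide isomerase, at 115 ± 3.49 came next. ATF4 at 82.7 ± 3.42 was the most abundant member of its arm. The lowest members were VLDLR, a lipoprotein receptor, at 1.81 ± 0.294, ERN1 at 1.34 ± 0.119 and CHAC1, a glutathione-degrading enzyme, at 1.01 ± 0.141. In Anillin 4N, HSPA5 stood at 188 ± 1.83, SLC7A5 at 18.2 ± 1.29 against 39.7 ± 5.17 in control 2N, and CHAC1 remained the lowest member at 0.731 ± 0.106.

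The promoters of the members differ in the short sequences that their known regulators recognise. The C/EBP-ATF response element (CARE), bound by ATF4 with a C/EBP partner, was searched as TGATGNAA. The ER stress response element (ERSE), bound by ATF6 with NF-Y, was searched as CCAAT, any 9 bases and CCACG. ERSE-II was searched as ATTGG, any base and CCACG, and the core of the unfolded protein response element as TGACGTGG. Both strands were read from 250 bases before to 50 bases after every listed transcription start in RefSeq promoters of GRCh38.p14, where 37 of 41 members had an entry. PSPH, SHMT2, SLC7A11 and VEGFA had none. CARE was found in 6 of 19 genes of the ATF4 arm (31.6%), in 1 of 18 of the ER arm (5.56%) and in 4.46% of all 27305 genes with a promoter. ERSE was found in 7 of 18 genes of the ER arm (38.9%), in 0 of 19 of the ATF4 arm and in 0.0916% of all genes. ERSE-II was found in 2 of 18 ER genes (11.1%), in 0 of the ATF4 arm and in 0.0696% of all genes. The element core TGACGTGG was in 0 members and 0.927% of all genes. Members had more listed starts than other genes (1.68 per gene in the ATF4 arm and 1.33 in the ER arm, against 1.29), which gives them more chances to hold a motif. Per promoter window, CARE was in 18.8% of those of the ATF4 arm against 3.62% of all windows, and ERSE in 37.5% of those of the ER arm against 0.0769% of all. The letters CCACG end both ERSE and ERSE-II, and their complement CGTGG ends the element core. A match describes the letters and does not show that a factor binds. Motifs and members were both chosen from what is known of these pathways, so higher shares in the arms are not an independent result. Only matches of members picked for their results below are printed. SLC3A2 and SLC7A1 (CARE), CALR, CANX and CRELD2 (ERSE) and SDF2L1 (ERSE-II) hold matches that are not printed. Of these, CALR, CRELD2 and SDF2L1 were not called on RPKM as deposited. PSAT1, PHGDH, MTHFD2, PDIA4 and MANF, which were called, hold no match. Sequences are on the strand of the gene, 5′ to 3′, with the matched bases in capitals. On the opposite strand a match reads as its reverse complement.
ASNS (CARE, chr7:97872464-97872481, minus strand): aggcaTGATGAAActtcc
CHAC1 (CARE, chr15:40953257-40953274, plus strand): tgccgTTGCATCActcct
CEBPG (CARE, chr19:33374066-33374083, plus strand): gcgtcTGATGCAAcctgc
SLC1A5 (CARE, chr19:46784899-46784916, minus strand): gtggcTGATGCAAgctgt
HSPA5 (ERSE, chr9:125241386-125241414, minus strand): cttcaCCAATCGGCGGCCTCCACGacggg
HSP90B1 (ERSE, chr12:103930211-103930239, plus strand): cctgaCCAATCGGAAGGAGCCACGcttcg
HSP90B1 (ERSE, chr12:103930316-103930344, plus strand): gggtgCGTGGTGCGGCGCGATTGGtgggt
PDIA6 (ERSE, chr2:10812848-10812876, minus strand): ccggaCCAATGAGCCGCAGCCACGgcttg
XBP1 (ERSE, chr22:28800598-28800626, minus strand): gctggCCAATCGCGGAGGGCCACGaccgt
HERPUD1 (ERSE-II, chr16:56932020-56932040, plus strand): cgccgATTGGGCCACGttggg
HERPUD1 (CARE, chr16:56931961-56931978, plus strand): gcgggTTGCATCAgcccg

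**Figure D1:**
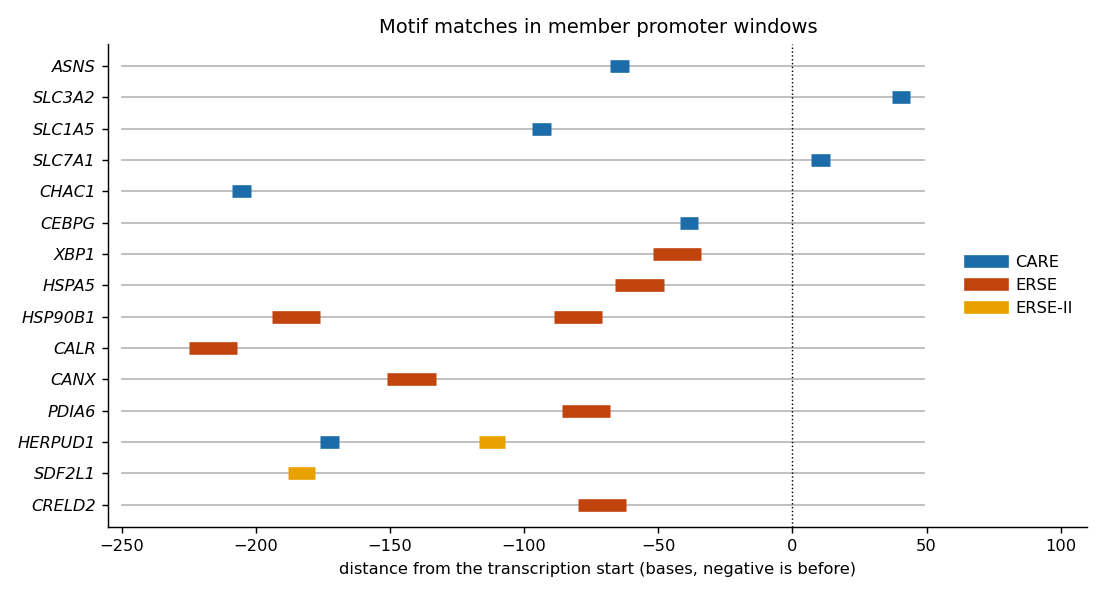
Positions of CARE, ERSE and ERSE-II matches (coloured bars) along the promoter windows (grey lines, 1 per gene) of the 15 members that hold any, in bases from the transcription start (dotted line). CARE lies mostly in amino acid genes and ERSE in ER genes; HERPUD1 holds both CARE and ERSE-II.

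In cells sorted at 4N, Anillin siRNA went with lower messenger RNA of amino acid synthesis and uptake genes and of ER chaperones. Of the 39 members that passed the filter on RPKM, 24 were lower and 6 higher in Anillin 4N than in control 4N at an adjusted p under 0.05, where 31.5% and 20.0% of all 12892 tested genes were lower and higher. The other 2, ERN1 and ATF6, lay below that filter. As RPKM is per genomic span, the filter drops long genes as well as low ones. Per kilobase of exon, ATF6 at 10.0 ± 0.676 RPM in control 2N was above the tested ASNS at 6.72 ± 0.238. In the ATF4 arm 16 of 23 were lower and 4 higher, with a median log2 change of -0.47, and in the ER arm 8 of 16 were lower and 2 higher, with a median of -0.22. The median over all tested genes was -0.05. The 16 include SLC7A11, which passed the filter through its control 4N libraries alone. Of the calls over all genes 38.9% were higher, against 48.8% with median-of-ratios and 52.4% with quantile scaling. In bulk RNA, fewer cells of a type and less RNA per cell cannot be told apart. The G2 and mitosis genes, whose sums are given above, fell in the same comparison, and their part in these differences was not tested.

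Among cells sorted at 2N the same siRNA gave 20 lower and 2 higher members of 39, against 17.1% and 11.4% of all tested genes. In the ATF4 arm 12 were lower and 2 higher (median -0.19), and in the ER arm 8 were lower and 0 higher (median -0.11), beside a median of -0.02 over all genes. At an unadjusted p under 0.05 limma-trend also had 0 higher in the ER arm. At its adjusted threshold limma-voom on reads had 1, ERN1. Of the calls over all genes 40.0% were higher, and 50.7% with quantile scaling. The G2 and mitosis sums were lower after Anillin siRNA at 2N too. The 2N and 4N comparisons share no library, and 18 members were lower in both, which is 75.0% of the 24 and 90.0% of the 20. Over all tested genes 1888 were lower in both, which is 46.5% of those lower at 4N and 85.5% of those lower at 2N. All 8 ER genes lower at 4N were lower at 2N: HSPA5, HSP90B1, CANX, PDIA4, PDIA6, MANF, HERPUD1 and XBP1. SESN2 and VLDLR were higher in both.

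**Figure D2:**
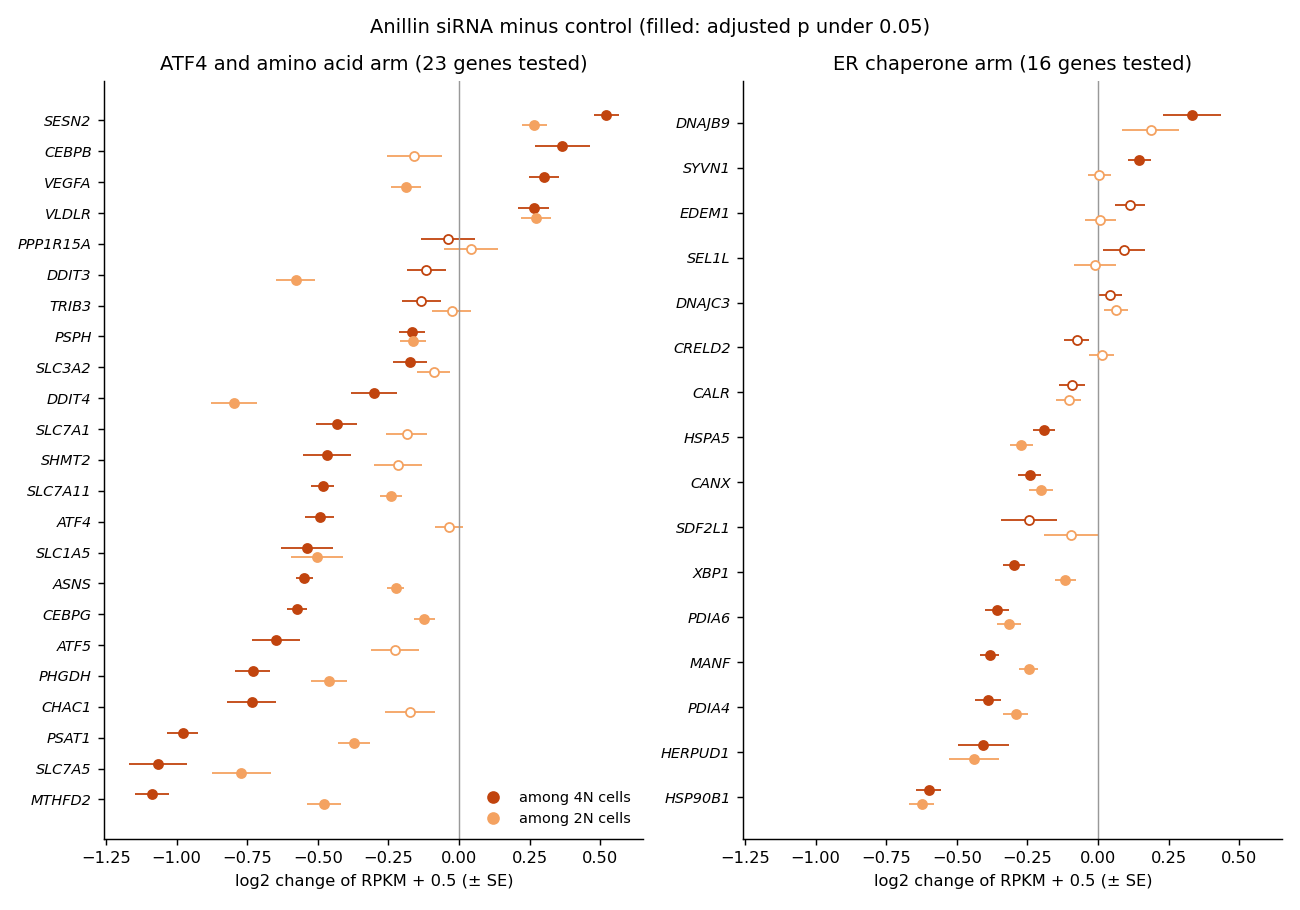
Log2 change (± SE) of each tested member after Anillin siRNA, among 4N cells (dark) and 2N cells (light), with filled points at an adjusted p under 0.05. In the left panel the 4N points of ATF4, PSAT1 and MTHFD2 lie far to the left of their 2N points, while in the right panel the pairs of HSP90B1, PDIA4 and PDIA6 nearly coincide.

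With control siRNA, 10 members were higher and 7 lower in 4N than in 2N cells, against 23.9% and 13.2% of all tested genes. With quantile scaling 10 members were higher and 14 lower. All 10 higher members belonged to the ATF4 arm (ATF4, ASNS, PSAT1, PHGDH, SHMT2, MTHFD2, SLC7A11, CHAC1, CEBPG and ATF5), where 2 were lower (DDIT3 and VEGFA) and the median was 0.12. SLC7A11 passed the filter through its control 4N libraries alone, and limma-voom on reads gave 0.51 ± 0.06 (adjusted p = 2.29e-06). In the ER arm 0 were higher and 5 lower (HSPA5, HERPUD1, DNAJB9, SEL1L and SYVN1), with a median of -0.05, beside 0.05 over all genes. At an unadjusted p under 0.05 limma-trend had 1 higher there, and limma-voom had 0 at its adjusted threshold. Of the calls over all genes 64.4% were higher, against 52.4% with median-of-ratios and 46.0% with quantile scaling. After Anillin siRNA the 4N and 2N cells differed in 2 members that were higher (SESN2 and DDIT4) and 3 that were lower (HSPA5, HERPUD1 and XBP1), against 2.61% and 0.97% of all tested genes, where 72.9% of the calls were higher and 61.4% with quantile scaling. The sums of the G2 and mitosis genes differed between 4N and 2N under both siRNAs, and their part in these differences was not tested. The comparisons of control 4N with control 2N and with Anillin 4N share the control 4N libraries, so high values there raise the first and lower the second, and the values of the members are therefore given by group below.

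**Figure D3:**
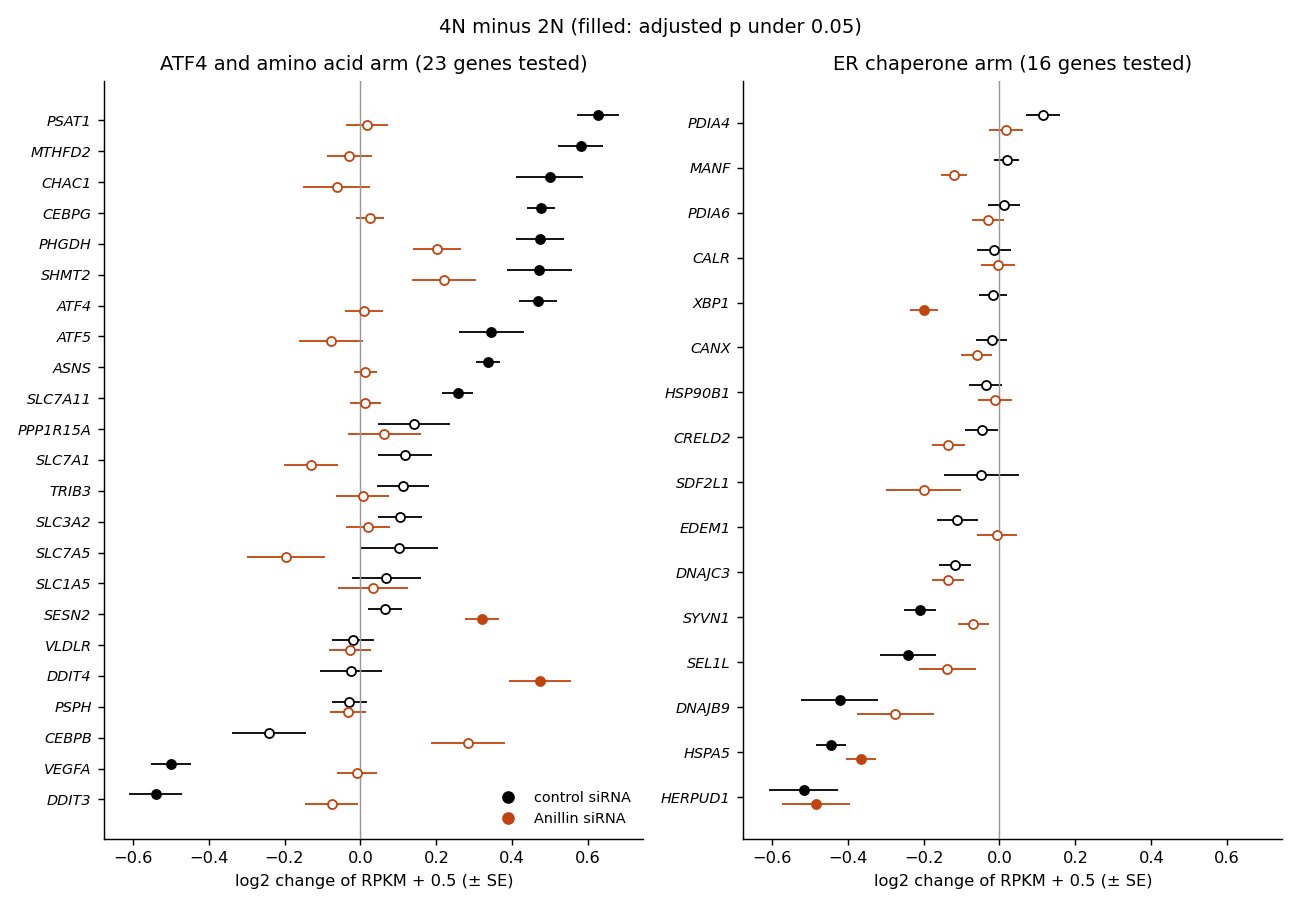
Log2 change (± SE) of each tested member in 4N over 2N cells, with control siRNA (black) and Anillin siRNA (red), filled at an adjusted p under 0.05. The 10 filled black points on the right of the left panel are ATF4-arm genes whose red points are open, and HSPA5 and HERPUD1 are filled and negative in both.

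ATF4 (ENSG00000128272, chromosome 22, 39519695 to 39522685, plus strand, GRCh38) was measured at 70.5, 66.2 and 71.7 RPKM (control 2N), 99.8, 94.2 and 94.6 (control 4N), 69.8, 66.7 and 66.7 (Anillin 2N) and 64.6, 67.7 and 72.5 (Anillin 4N). The 3 control 4N libraries lay above the other 9, which covered a narrow range. Its messenger RNA fell by 29.1% from control 4N to Anillin 4N (log2 change -0.49 ± 0.05, adjusted p = 2.79e-05) and was higher in control 4N than control 2N (0.47 ± 0.05, adjusted p = 9.33e-05). It passed neither of the other comparisons, with -0.04 ± 0.05 for the siRNA at 2N (95% interval -0.15 to 0.08) and 0.01 ± 0.05 for 4N against 2N after Anillin siRNA (-0.10 to 0.12). The siRNA change differed between 4N and 2N cells by -0.46 ± 0.07 (interaction, adjusted p = 0.00257). ATF4 has 3 named pseudogenes, which held 25.3% as many reads, and reads of near-identical copies may be split between them. The pseudogenes together gave 52.9, 73.4, 49.7 and 52.0 RPM in the same group order, again highest with control siRNA at 4N.

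All 5 enzymes of serine synthesis and mitochondrial one-carbon metabolism (PHGDH, PSAT1, PSPH, SHMT2 and MTHFD2) had lower levels in Anillin 4N than control 4N. PSAT1 (chromosome 9, 78297143 to 78330093, plus strand), the serine pathway aminotransferase, was measured at 1.53, 1.24 and 1.38 RPKM (control 2N), 2.55, 2.26 and 2.39 (control 4N), 0.940, 0.998 and 0.922 (Anillin 2N) and 0.983, 0.949 and 0.981 (Anillin 4N). Control 4N was highest, control 2N came next, and all 6 Anillin libraries were below both. Its log2 changes with Anillin siRNA were -0.98 ± 0.06 at 4N (adjusted p = 5.71e-07) and -0.37 ± 0.06 at 2N (adjusted p = 0.00108), with an interaction of -0.61 ± 0.08 (adjusted p = 9.39e-04). MTHFD2 (chromosome 2, 74198562 to 74217565, plus strand), a mitochondrial folate enzyme, was measured at 3.32, 2.83 and 3.40 RPKM (control 2N), 5.27, 4.77 and 4.95 (control 4N), 2.24, 2.14 and 2.04 (Anillin 2N) and 2.13, 2.06 and 2.08 (Anillin 4N). The groups stood in the same order as for PSAT1, with the Anillin groups overlapping each other. MTHFD2 changed by -1.09 ± 0.06 at 4N (adjusted p = 4.71e-07) and by -0.48 ± 0.06 at 2N (adjusted p = 4.34e-04).

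PHGDH (chromosome 1, 119648411 to 119744226, plus strand), which catalyses the entry step of serine synthesis, was measured at 1.08, 0.899 and 1.15 RPKM (control 2N), 1.68, 1.52 and 1.70 (control 4N), 0.690, 0.577 and 0.592 (Anillin 2N) and 0.793, 0.765 and 0.799 (Anillin 4N). No group overlapped another, and both Anillin groups lay below control 2N. The siRNA changes were -0.73 ± 0.06 at 4N (adjusted p = 9.57e-06) and -0.46 ± 0.06 at 2N (adjusted p = 7.23e-04). The added 0.5 shrinks them, and on reads they were -1.05 ± 0.08 and -0.75 ± 0.08. After Anillin siRNA the 4N to 2N difference of 0.20 ± 0.06 did not pass on RPKM (adjusted p = 0.136), while limma-voom on recovered reads gave 0.34 ± 0.08 (adjusted p = 0.0252). SHMT2, the mitochondrial serine hydroxymethyltransferase, had 19.8 to 24.1, 28.1 to 33.3, 18.4 to 20.2 and 21.5 to 23.3 RPKM across control 2N and 4N and Anillin 2N and 4N in turn, and fell by 28.3% at 4N (log2 -0.47 ± 0.08, adjusted p = 0.00113). At 2N its change of -0.22 ± 0.08 did not pass (adjusted p = 0.0870) except with limma-voom on reads (-0.22 ± 0.07, adjusted p = 0.0256). PSPH, the phosphatase of the last step of serine synthesis, changed by -0.17 ± 0.05 at 4N (adjusted p = 0.0126) and by -0.16 ± 0.05 at 2N. The PSPH call at 2N, with adjusted p = 0.0256, was lost without library 1 or 3 of control 2N or any single Anillin 2N library (adjusted p = 0.0510 to 0.0885). It was also lost with quantile scaling and with the compared groups alone fitted (adjusted p up to 0.103). PSPH passed the filter through 4 control libraries alone, and on reads, where the added 0.5 does not shrink it, it changed by -0.35 ± 0.08 at 4N (adjusted p = 0.00197) and -0.33 ± 0.07 at 2N (adjusted p = 0.00221).

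ASNS, which makes asparagine and carries the CARE printed above, had 1.43 to 1.52, 1.91 to 2.03, 1.13 to 1.20 and 1.19 to 1.20 RPKM across control 2N and 4N and Anillin 2N and 4N in turn. Control 4N lay above all other libraries and the Anillin libraries lay below both control groups. ASNS changed by -0.55 ± 0.03 at 4N (adjusted p = 5.33e-07), by -0.22 ± 0.03 at 2N (adjusted p = 6.95e-04) and by 0.34 ± 0.03 from control 2N to control 4N (adjusted p = 3.33e-05). CHAC1 (chromosome 15, 40952962 to 40956519, plus strand), which degrades glutathione and also holds a CARE match, was measured at 0.682, 0.529 and 0.553 RPKM (control 2N), 1.05, 0.872 and 1.20 (control 4N), 0.485, 0.407 and 0.5001 (Anillin 2N) and 0.353, 0.451 and 0.466 (Anillin 4N). Its control 4N libraries were the highest and its Anillin groups overlapped each other below control 2N. It fell by 59.3% at 4N (log2 -0.73 ± 0.09, adjusted p = 7.48e-05), and its change at 2N of -0.17 ± 0.09 did not pass (adjusted p = 0.174). CHAC1 was the least counted member, with 996 reads over all 12 libraries, and 0.5 added to values near 0.5 RPKM shrinks its log2 change: on reads the change at 4N was -1.24 ± 0.19.

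**Figure D4:**
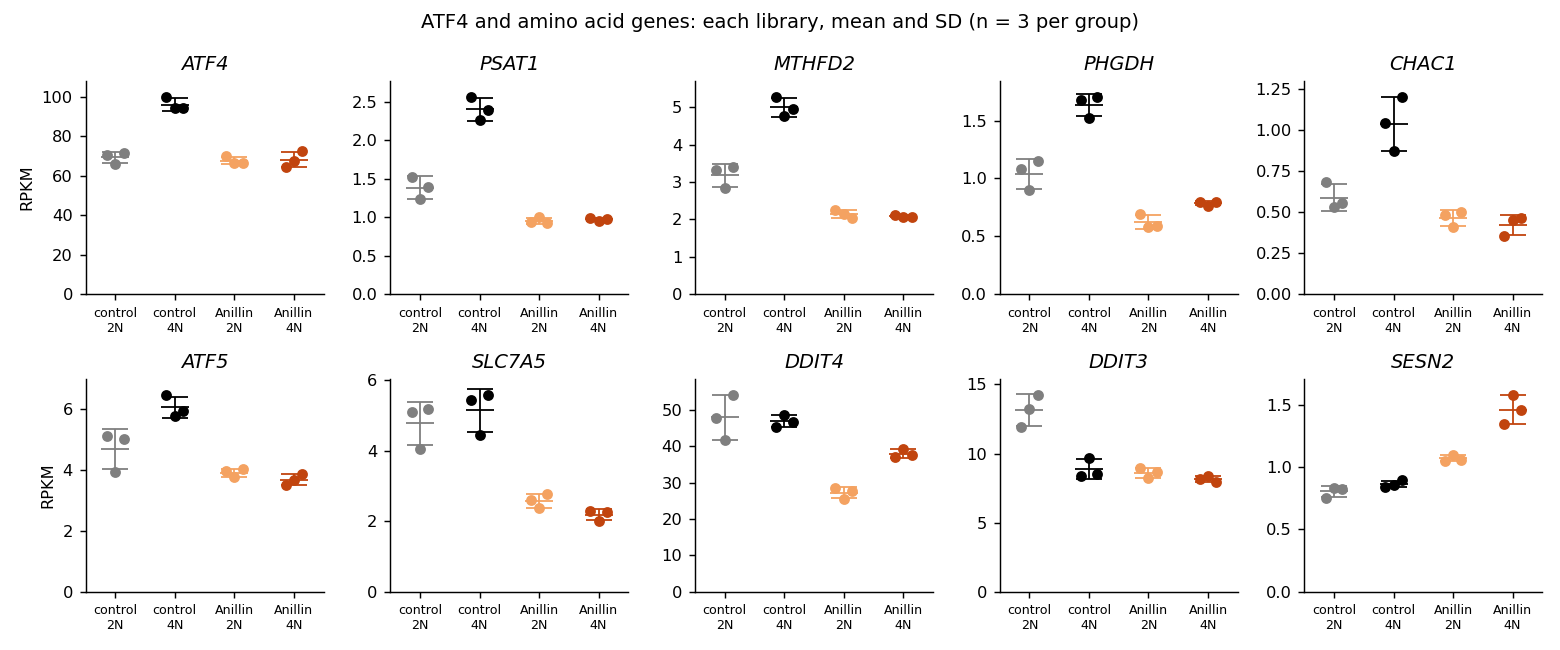
RPKM of 10 genes of the ATF4 arm in each library (points), with mean and SD (bars) of 3 libraries per group; every axis starts at 0. ATF4, PSAT1, MTHFD2, PHGDH, CHAC1 and ATF5 peak in control 4N, SLC7A5 and DDIT4 are lower in both Anillin groups, DDIT3 is highest in control 2N and SESN2 is highest in Anillin 4N.

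All 5 amino acid transporter genes had lower levels in Anillin 4N than control 4N, and SLC7A5, SLC1A5 and SLC7A11 were also lower with the siRNA at 2N. SLC7A5 (chromosome 16, 87830023 to 87869488, minus strand), the light chain of the LAT1 exchanger that imports leucine and other large neutral amino acids, was measured at 5.08, 4.05 and 5.17 RPKM (control 2N), 5.42, 4.44 and 5.57 (control 4N), 2.59, 2.37 and 2.78 (Anillin 2N) and 2.30, 2.01 and 2.26 (Anillin 4N). The control groups overlapped each other and all 6 Anillin libraries lay below both. SLC7A5 fell by 57.5% at 4N (log2 -1.07 ± 0.10, adjusted p = 1.95e-05) and by 45.9% at 2N (log2 -0.77 ± 0.10, adjusted p = 6.19e-04). On reads, without the added 0.5, these log2 changes were -1.22 ± 0.09 and -0.89 ± 0.09. The 4N to 2N change of SLC7A5 of 0.10 ± 0.10 with control siRNA did not pass (95% interval -0.13 to 0.33). SLC1A5, a glutamine carrier, had 5.36 to 6.80 and 5.79 to 7.18 RPKM in the control groups and 4.22 to 4.31 and 4.22 to 4.48 in Anillin 2N and 4N. It changed by -0.54 ± 0.09 at 4N (adjusted p = 7.71e-04) and by -0.50 ± 0.09 at 2N (adjusted p = 0.00309).

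SLC7A11, the cystine importer that supplies glutathione synthesis, had 0.417 to 0.434, 0.590 to 0.622, 0.250 to 0.315 and 0.283 to 0.293 RPKM across control 2N and 4N and Anillin 2N and 4N in turn, with control 4N highest and the Anillin groups overlapping below both controls. Its changes of -0.48 ± 0.04 at 4N (adjusted p = 6.91e-06) and -0.24 ± 0.04 at 2N (adjusted p = 0.00184) are shrunk on this scale, where the added 0.5 is as large as its RPKM. On reads they were -1.06 ± 0.07 (adjusted p = 3.74e-10) and -0.61 ± 0.07 (adjusted p = 1.21e-06). SLC7A11 passed the filter on RPKM through its control 4N libraries alone, the group where it was high. Its RPKM calls that use control 4N, the interaction among them, follow in part from the filter. SLC7A1, a carrier of arginine and lysine, changed by -0.43 ± 0.07 at 4N (adjusted p = 6.43e-04), and by -0.19 ± 0.07 at 2N, which did not pass (adjusted p = 0.0832), though on reads it did (-0.32 ± 0.09, adjusted p = 0.00970). SLC3A2, the heavy chain that pairs with SLC7A5 and SLC7A11, had 3.74 to 4.31 RPKM in control 4N and 3.47 to 3.72 in Anillin 4N. The call for SLC3A2 at 4N (-0.17 ± 0.06, adjusted p = 0.0312) was lost without library 1 or 3 of control 4N or library 2 or 3 of Anillin 4N (adjusted p = 0.0770 to 0.110), and under 4 other settings.

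Among the transcription factors that partner with or follow ATF4, CEBPG, a C/EBP protein that dimerises with ATF4, had 1.88 to 2.02, 2.82 to 2.96, 1.68 to 1.77 and 1.68 to 1.82 RPKM across control 2N and 4N and Anillin 2N and 4N in turn. It followed ATF4, with control 4N above all other libraries. CEBPG changed by -0.57 ± 0.04 at 4N (adjusted p = 1.20e-06) and by 0.48 ± 0.04 between the control groups (adjusted p = 8.91e-06). Its small fall at 2N (-0.12 ± 0.04, adjusted p = 0.0302) was lost without library 1 of control 2N or library 1 or 2 of Anillin 2N (adjusted p = 0.0660 to 0.109) and on reads (adjusted p = 0.0614). That call was also lost without the filter, with quantile or median-of-ratios scaling, and with the compared groups alone fitted. ATF5 (chromosome 19, 49928702 to 49933935, plus strand), a stress factor translated in the same way as ATF4, was measured at 5.13, 3.94 and 5.03 RPKM (control 2N), 6.47, 5.80 and 5.94 (control 4N), 3.96, 3.77 and 4.03 (Anillin 2N) and 3.502, 3.69 and 3.88 (Anillin 4N). Its control 4N libraries were the highest, while control 2N overlapped Anillin 2N. On reads ATF5 was also lower in Anillin 2N than control 2N (-0.28 ± 0.08, adjusted p = 0.0149), which did not pass on RPKM (adjusted p = 0.0753). ATF5 changed by -0.65 ± 0.08 at 4N (adjusted p = 1.42e-04) and by 0.34 ± 0.08 between the control groups (adjusted p = 0.0105), the latter not passing when those groups alone were fitted (adjusted p = 0.0573). CEBPB, another C/EBP factor, went the other way: it had 40.5 to 46.8 RPKM in control 4N and 54.3 to 60.9 in Anillin 4N and rose by 29.04% (log2 0.37 ± 0.10, adjusted p = 0.00989). At 2N its change of -0.16 ± 0.10 did not pass (adjusted p = 0.261). On reads, though not on RPKM, CEBPB was lower in control 4N than control 2N (-0.25 ± 0.08, adjusted p = 0.0183) and higher in Anillin 4N than Anillin 2N (0.30 ± 0.08, adjusted p = 0.0445).

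DDIT3 (chromosome 12, 57516588 to 57521737, minus strand), which encodes the factor CHOP that is tied to cell death in prolonged ER stress, was measured at 11.9, 13.2 and 14.2 RPKM (control 2N), 8.40, 9.69 and 8.51 (control 4N), 8.93, 8.22 and 8.65 (Anillin 2N) and 8.13, 8.35 and 7.91 (Anillin 4N). Control 2N lay above the other 9 libraries, a pattern unlike that of ATF4. DDIT3 was lower in Anillin 2N (-0.58 ± 0.07, adjusted p = 3.85e-04) and in control 4N (-0.54 ± 0.07, adjusted p = 3.18e-04) than in control 2N, and its change at 4N of -0.12 ± 0.07 did not pass (adjusted p = 0.202). MARS1 and MBD6 overlap its exons on the opposite strand, the larger of them with 277% as many reads, and whether counting used strand is not given in the sources used here. MARS1 itself, a transfer RNA synthetase, was higher in control 4N than control 2N (0.35 ± 0.08) and lower in Anillin 4N than control 4N (-0.47 ± 0.08). IL4I1 and NUP62 overlap ATF5 in the same way (230%), and SLC4A5 overlaps MTHFD2, whose larger opposite-strand partner had 102% as many reads.

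DDIT4 (chromosome 10, 72273920 to 72276036, plus strand), also called REDD1, an inhibitor of mTORC1 signalling, was measured at 47.8, 41.8 and 54.0 RPKM (control 2N), 45.3, 48.5 and 46.8 (control 4N), 28.5, 25.6 and 27.6 (Anillin 2N) and 37.1, 39.3 and 37.5 (Anillin 4N). The control groups overlapped, Anillin 4N lay below them and Anillin 2N lay lowest. DDIT4 fell by 43.2% at 2N (log2 -0.80 ± 0.08, adjusted p = 1.56e-04) and by 19.0% at 4N (log2 -0.30 ± 0.08, adjusted p = 0.0112), the 4N call being lost with quantile scaling (adjusted p = 0.0867). After Anillin siRNA it was higher in 4N than 2N cells (0.47 ± 0.08, adjusted p = 0.0118), a call lost without library 2 of Anillin 2N or library 2 of Anillin 4N (adjusted p = 0.0562 to 0.0581). SESN2, a leucine sensor that also restrains mTORC1 and is a target of p53 as well as ATF4, was measured at 0.752, 0.835 and 0.827 RPKM (control 2N), 0.840, 0.860 and 0.893 (control 4N), 1.05, 1.10 and 1.06 (Anillin 2N) and 1.35, 1.58 and 1.46 (Anillin 4N). It was picked for its per-library values after they had been seen. The groups did not overlap: Anillin 4N was highest, Anillin 2N next, then control 4N, with control 2N lowest. SESN2 rose by 69.0% at 4N (log2 0.52 ± 0.04, adjusted p = 8.09e-06) and by 32.8% at 2N (log2 0.27 ± 0.04, adjusted p = 0.00184), and was higher in Anillin 4N than Anillin 2N (0.32 ± 0.04, adjusted p = 0.00339). The added 0.5 shrinks these log2 changes but not the percentages. On reads the siRNA changes were 0.75 ± 0.07 at 4N and 0.41 ± 0.07 at 2N. The sums of the 4 p53 targets given above were ordered in the same way, and their part in the SESN2 values was not tested.

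VLDLR rose with Anillin siRNA by 43.6% at 4N (log2 0.26 ± 0.05, adjusted p = 0.00245) and by 43.9% at 2N (log2 0.27 ± 0.05, adjusted p = 0.00505). The added 0.5 shrinks these log2 changes, which on reads were 0.51 ± 0.09 (adjusted p = 1.20e-04) and 0.55 ± 0.08 (adjusted p = 4.76e-05). VLDLR passed the filter on RPKM through the 6 Anillin libraries, where it was high, and 1 control library. VEGFA, the angiogenic growth factor, had 47.9 to 53.1 RPKM in control 2N, 33.7 to 37.6 in control 4N, 42.9 to 45.9 in Anillin 2N and 42.4 to 44.9 in Anillin 4N, so that control 4N stood lowest. It was lower in control 4N than control 2N (-0.50 ± 0.05, adjusted p = 8.31e-05), higher in Anillin 4N than control 4N (0.30 ± 0.05, adjusted p = 9.34e-04) and slightly lower in Anillin 2N than control 2N (-0.19 ± 0.05, adjusted p = 0.0242). That last call was lost without library 2 or 3 of control 2N or library 1 or 2 of Anillin 2N (adjusted p = 0.0640 to 0.0875). Quantile scaling, median-of-ratios scaling and fitting the compared groups alone also ended it (adjusted p up to 0.103). TRIB3, a pseudokinase that feeds back on ATF4, and PPP1R15A, the phosphatase subunit that reverses eIF2 phosphorylation, passed in none of the comparisons. TRIB3 ranged from 0.446 to 0.671 RPKM over all libraries, and the 95% interval of its change at 4N was -0.29 to 0.02. For PPP1R15A that interval was -0.25 to 0.18 and its range over all libraries 33.4 to 44.1 RPKM.

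In the ER arm, the messenger RNAs of HSP90B1, PDIA4, PDIA6, MANF and CANX were lower after Anillin siRNA at both DNA contents, and none of these 5 passed the test between 4N and 2N within either siRNA on RPKM as deposited. With quantile scaling HSP90B1 (-0.21, adjusted p = 0.0325) and CANX (-0.17, adjusted p = 0.0388) were lower in control 4N than control 2N. MANF was lower in Anillin 4N than Anillin 2N with quantile (-0.17, adjusted p = 0.042) and median-of-ratios scaling (-0.14, adjusted p = 0.0392). HSP90B1 (chromosome 12, 103930107 to 103953645, plus strand), with ERSE matches on both strands, was measured at 75.1, 79.0 and 73.5 RPKM (control 2N), 75.5, 74.2 and 72.1 (control 4N), 47.7, 47.8 and 51.6 (Anillin 2N) and 47.7, 47.9 and 50.2 (Anillin 4N). The control groups overlapped, as did the Anillin groups, and nothing lay between them. HSP90B1 fell by 34.2% at 4N (log2 -0.60 ± 0.04, adjusted p = 3.28e-06) and by 35.4% at 2N (log2 -0.62 ± 0.04, adjusted p = 2.12e-05). The interaction was 0.03 ± 0.06, with a 95% interval of -0.11 to 0.17. PDIA4 (chromosome 7, 149003062 to 149028641, minus strand), a disulfide isomerase, was measured at 9.73, 9.29 and 9.56 RPKM (control 2N), 10.5, 10.0 and 10.5 (control 4N), 7.49, 7.37 and 8.22 (Anillin 2N) and 7.65, 7.68 and 8.04 (Anillin 4N). PDIA6 (chromosome 2, 10783391 to 10837977, minus strand) was measured at 8.64, 8.87 and 8.35 RPKM (control 2N), 8.88, 8.67 and 8.52 (control 4N), 6.79, 6.60 and 7.10 (Anillin 2N) and 6.48, 6.54 and 7.002 (Anillin 4N). For both isomerases all 6 Anillin libraries lay below all 6 control libraries. PDIA4 changed by -0.39 ± 0.05 at 4N (adjusted p = 6.29e-05) and -0.29 ± 0.05 at 2N (adjusted p = 0.00127), and PDIA6 by -0.36 ± 0.04 (adjusted p = 6.49e-05) and -0.32 ± 0.04 (adjusted p = 5.79e-04).

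MANF (chromosome 3, 51385047 to 51389397, plus strand), a small secreted protein that binds HSPA5, was measured at 17.7, 17.8 and 18.4 RPKM (control 2N), 18.7, 18.1 and 17.8 (control 4N), 15.2, 14.8 and 15.1 (Anillin 2N) and 13.6, 13.8 and 14.0 (Anillin 4N). Anillin 4N was lowest and Anillin 2N lay between it and the overlapping control groups. MANF changed by -0.38 ± 0.03 at 4N (adjusted p = 9.20e-06) and by -0.25 ± 0.03 at 2N (adjusted p = 6.52e-04), and its 4N to 2N change with control siRNA was 0.02 ± 0.03, which turned to -0.14 (adjusted p = 0.0170) with quantile scaling. CANX had 14.2 to 15.1 and 14.2 to 14.6 RPKM in the control groups and 12.1 to 13.4 and 11.9 to 12.3 in Anillin 2N and 4N. CANX changed by -0.24 ± 0.04 at 4N (adjusted p = 7.74e-04) and by -0.20 ± 0.04 at 2N (adjusted p = 0.00552). Quantile scaling ended both calls (adjusted p = 0.265 at 4N), and so did fitting the compared groups alone at 2N. CALR, the most abundant member per length, ranged from 194 to 225 RPKM over all libraries, and its changes of -0.09 ± 0.05 at 4N (95% interval -0.19 to 0.01) and -0.10 ± 0.05 at 2N (-0.21 to -0.00, not adjusted) did not pass, the former passing without library 3 of Anillin 4N (-0.13, adjusted p = 0.0429).

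HSPA5 (chromosome 9, 125234853 to 125241330, minus strand) was measured at 167, 186 and 178 RPKM (control 2N), 128, 134 and 128 (control 4N), 145, 145 and 149 (Anillin 2N) and 113, 113 and 115 (Anillin 4N). No group overlapped another: at each DNA content Anillin siRNA was below control, and with each siRNA 4N was below 2N. It changed by -0.44 ± 0.04 from 2N to 4N with control siRNA (adjusted p = 2.89e-05) and by -0.36 ± 0.04 with Anillin siRNA (adjusted p = 9.71e-04). The siRNA changes were -0.27 ± 0.04 at 2N (adjusted p = 9.94e-04) and -0.19 ± 0.04 at 4N (adjusted p = 0.00261), the 4N call being lost with quantile or median-of-ratios scaling (adjusted p = 0.0609 to 0.0700). HERPUD1 (chromosome 16, 56932048 to 56944863, plus strand), a membrane component of ER-associated degradation, was measured at 11.5, 13.5 and 13.1 RPKM (control 2N), 8.13, 9.55 and 8.54 (control 4N), 9.73, 9.83 and 8.20 (Anillin 2N) and 6.56, 6.86 and 5.99 (Anillin 4N). Control 2N was highest, Anillin 4N lowest, and control 4N and Anillin 2N overlapped between them. HERPUD1 changed by -0.41 ± 0.09 at 4N (adjusted p = 0.00377) and -0.44 ± 0.09 at 2N (adjusted p = 0.00572) with the siRNA, and by -0.52 ± 0.09 from 2N to 4N with control siRNA (adjusted p = 0.00179). Its 4N to 2N change after Anillin siRNA (-0.48 ± 0.09, adjusted p = 0.0174) was lost without library 1 or 2 of Anillin 2N or library 1 or 3 of Anillin 4N (adjusted p = 0.0516 to 0.0768). Fitting the compared groups alone ended that call too. HSPA5 and HERPUD1 were the 2 members lower in 4N under both siRNAs, a pair of comparisons with no library in common, and make up 28.6% of the 7 and 66.7% of the 3. Over all tested genes the shares were 4.99% and 68.0%.

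**Figure D5:**
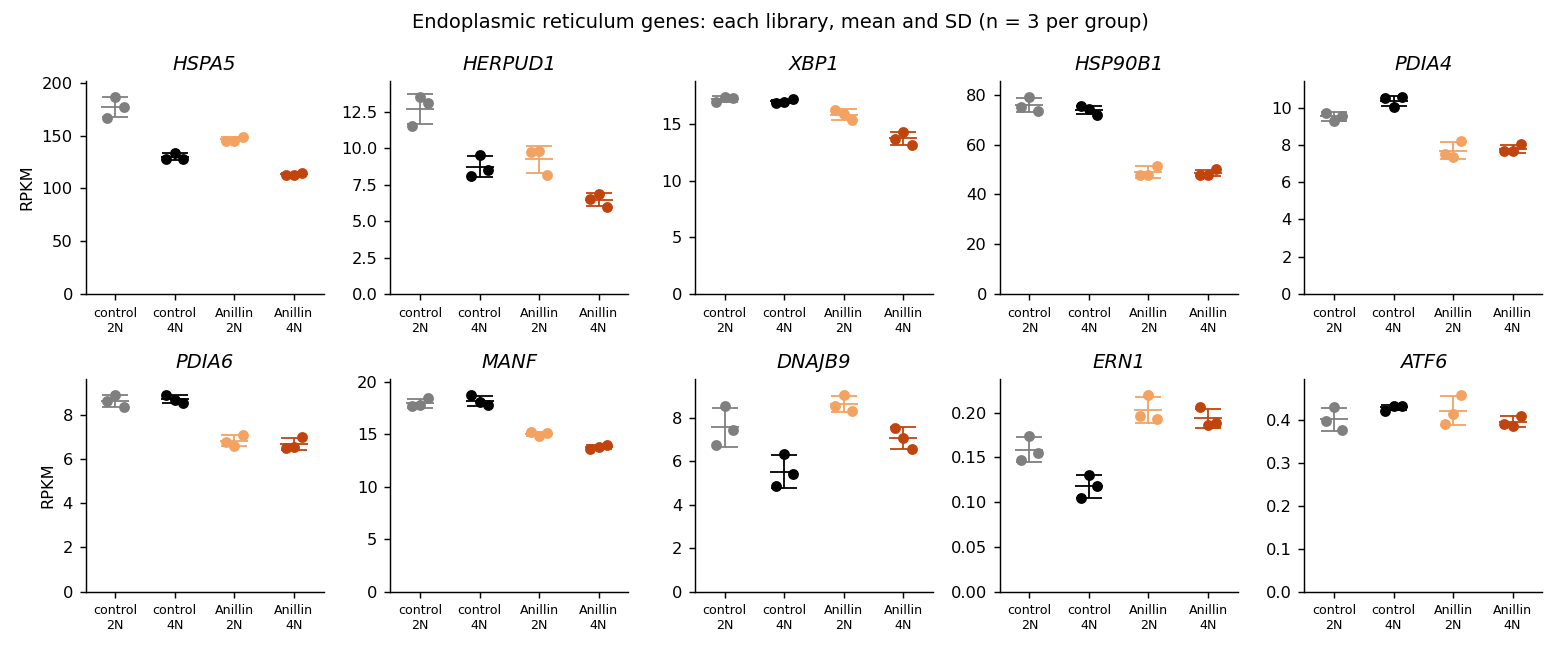
RPKM of 10 genes of the ER arm in each library (points), with mean and SD (bars) of 3 libraries per group; every axis starts at 0. HSP90B1, PDIA4 and PDIA6 split by siRNA, HSPA5 and HERPUD1 by siRNA and by DNA content, ERN1 and DNAJB9 are lowest in control 4N, and the ATF6 groups lie close together.

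Of the sensors and their factor, XBP1 (chromosome 22, 28794555 to 28800597, minus strand) was measured at 16.9, 17.3 and 17.3 RPKM (control 2N), 16.9, 16.9 and 17.2 (control 4N), 16.3, 15.9 and 15.3 (Anillin 2N) and 13.7, 14.3 and 13.2 (Anillin 4N). The control groups overlapped, Anillin 2N was lower and Anillin 4N lowest. It changed by -0.30 ± 0.04 at 4N (adjusted p = 1.12e-04). The smaller falls at 2N (-0.12 ± 0.04, adjusted p = 0.0438) and from Anillin 2N to Anillin 4N (-0.20 ± 0.04, adjusted p = 0.0186) did not hold without each single library. The 2N call was lost without any single library of control 2N or library 2 or 3 of Anillin 2N (adjusted p = 0.0704 to 0.131). It was also lost with quantile or median-of-ratios scaling, on reads, and with the compared groups alone fitted, the adjusted p reaching 0.326. The Anillin 4N to 2N call was lost without library 1 or 2 of Anillin 2N or library 1 or 3 of Anillin 4N (adjusted p = 0.0633 to 0.0783). Fitting the compared groups alone also ended it (adjusted p = 0.0982). Spliced and unspliced XBP1 are counted together here. ERN1 (chromosome 17, 64039142 to 64130819, minus strand), the splicing sensor IRE1, was measured at 0.147, 0.174 and 0.155 RPKM (control 2N), 0.105, 0.130 and 0.118 (control 4N), 0.196, 0.220 and 0.193 (Anillin 2N) and 0.206, 0.186 and 0.188 (Anillin 4N). Below the filter on RPKM, it could be tested on recovered reads with limma-voom, where all 41 members entered. It was higher with Anillin siRNA at 4N (0.69 ± 0.09, adjusted p = 4.71e-06) and at 2N (0.38 ± 0.08, adjusted p = 0.00136) and lower in control 4N than control 2N (-0.39 ± 0.09, adjusted p = 0.00152). In that fit 20.8% and 23.6% of 22404 genes were higher and lower at 4N with the siRNA, 12.4% and 16.2% at 2N, 19.0% and 17.3% in control 4N over control 2N, 2.57% and 1.47% in Anillin 4N over Anillin 2N, and 6.36% and 8.19% for the interaction. ATF6 (chromosome 1, 161766294 to 161964070, plus strand), the cleaved sensor, was measured at 0.398, 0.429 and 0.376 RPKM (control 2N), 0.421, 0.433 and 0.433 (control 4N), 0.391, 0.414 and 0.457 (Anillin 2N) and 0.391, 0.385 and 0.410 (Anillin 4N). Its groups overlapped except Anillin 4N against control 4N, and it passed in none of the comparisons, with -0.12 ± 0.06 for the siRNA at 4N (adjusted p = 0.137).

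Of the co-chaperones and the other degradation genes, DNAJB9 and SYVN1 were higher with Anillin siRNA at 4N and none was lower. DNAJB9 (chromosome 7, 108569568 to 108574850, plus strand), an ER J-protein that restrains IRE1, was measured at 6.75, 8.54 and 7.43 RPKM (control 2N), 4.85, 6.35 and 5.40 (control 4N), 8.57, 9.05 and 8.32 (Anillin 2N) and 7.56, 7.09 and 6.56 (Anillin 4N). Control 4N lay below all other libraries. It was lower in control 4N than control 2N (-0.42 ± 0.10, adjusted p = 0.00943) and higher in Anillin 4N than control 4N (0.33 ± 0.10, adjusted p = 0.0193), the latter lost without library 1 or 3 of control 4N or library 1 of Anillin 4N (adjusted p = 0.0551 to 0.0764). PNPLA8 and THAP5 overlap DNAJB9 on the opposite strand, the larger with 144% as many reads. SYVN1 and SEL1L, the ubiquitin ligase HRD1 and its partner in ER-associated degradation, were lower in control 4N than control 2N, with log2 changes of -0.21 ± 0.04 (adjusted p = 0.00359) and -0.24 ± 0.07 (adjusted p = 0.0296). The SEL1L call was lost without library 2 of control 2N or library 1 or 3 of control 4N (adjusted p = 0.0744 to 0.106), and without the filter (adjusted p = 0.0689). SYVN1 was also higher in Anillin 4N than control 4N (0.15 ± 0.04, adjusted p = 0.0141), which was lost without library 3 of Anillin 4N (adjusted p = 0.0555), and FAU overlaps it on the same strand with 320% as many reads. EDEM1, which directs glycoproteins to degradation, DNAJC3, a co-chaperone that also inhibits eIF2 kinases, SDF2L1, a partner of ER J-proteins, and CRELD2, a secreted ER stress protein, passed in none of the comparisons on RPKM as deposited. With quantile scaling EDEM1 passed at 4N with the siRNA (0.20, adjusted p = 0.0219) and between the control groups, and CRELD2 between 4N and 2N under either siRNA (-0.15, adjusted p = 0.0150, with control siRNA). SDF2L1 passed at 4N without library 2 of control 4N (-0.36, adjusted p = 0.00407). Their changes with Anillin siRNA at 4N were 0.11 ± 0.05, 0.04 ± 0.04, -0.25 ± 0.10 and -0.08 ± 0.04. On reads DNAJC3 passed between 4N and 2N with control siRNA (-0.21 ± 0.06, adjusted p = 0.0102) and Anillin siRNA (-0.23 ± 0.06, adjusted p = 0.0366).

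The other genes of these pathways were taken as whole lists. Of 20 cytosolic aminoacyl-tRNA synthetases, which charge transfer RNAs and include known ATF4 targets, 15 were lower (75.0%) and 1 higher in Anillin 4N than control 4N, with a median log2 change of -0.30, beside 31.5% and 20.0% of all tested genes. At 2N 10 were lower and 1 higher with the siRNA (median -0.18), beside 17.1% and 11.4%. Between the control groups 11 were higher in 4N and 1 lower (median 0.19), beside 23.9% and 13.2%. TARS1, the threonine enzyme, showed the largest falls with the siRNA, -0.68 ± 0.05 at 4N (adjusted p = 1.83e-06) and -0.37 ± 0.05 at 2N (adjusted p = 4.20e-04), and IARS1, the isoleucine enzyme, followed with -0.57 ± 0.06 and -0.36 ± 0.06. QARS1, the glutamine enzyme, was the exception and was higher at 4N (0.34 ± 0.04) and 2N (0.32 ± 0.04). MARS1 (0.35 ± 0.08) and TARS1 (0.35 ± 0.05) were most raised in control 4N over control 2N. Between Anillin 4N and Anillin 2N 0 of 20 passed with limma-trend or limma-voom, and at an unadjusted p under 0.05 limma-trend had 1 higher and 1 lower. CARE was found in 7 of the 16 synthetase genes with a promoter entry (43.8%).

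Of 14 genes for eIF2 kinases, eIF2 and eIF2B subunits and related factors, 12 passed the filter. Anillin 4N had 8 lower (66.7%) and 1 higher (8.33%) than control 4N, beside 31.5% and 20.0% of all tested genes. Anillin 2N had 4 lower (33.3%) and 0 higher than control 2N, beside 17.1% and 11.4%. Limma-trend at an unadjusted p under 0.05 and limma-voom at its adjusted threshold also had 0 higher. EIF2S2, the beta subunit of eIF2, changed most, by -0.45 ± 0.05 at 4N (adjusted p = 2.39e-05) and -0.20 ± 0.05 at 2N (adjusted p = 0.00824). EIF2S1, the alpha subunit that is phosphorylated, fell by 26.9% at 4N (log2 -0.38 ± 0.07, adjusted p = 8.25e-04), while PPP1R15B, a phosphatase subunit, rose (0.16 ± 0.06, adjusted p = 0.0424). Of 30 other ATF4 and amino acid genes, 19 passed the filter, with 12 lower (63.2%) and 4 higher (21.1%) at 4N, and 6 lower (31.6%) and 2 higher (10.5%) at 2N. The same shares of all genes apply, so the higher shares were near those of all genes. XPOT, the transfer RNA exporter (-0.67 ± 0.05), and MTHFD1, the cytosolic folate enzyme (-0.66 ± 0.07), had the largest falls at 4N. CEBPD (1.05 ± 0.09), a C/EBP factor, and ATF3 (0.76 ± 0.12), a stress factor of the same family as ATF4, had the largest rises. In control 4N over control 2N 7 of the 19 were higher (36.8%) and 4 lower (21.1%), beside 23.9% and 13.2% of all tested genes.

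Of 40 other genes for ER folding, degradation and sensing, 34 passed the filter. With Anillin siRNA 19 were lower (55.9%) and 5 higher (14.7%) at 4N (median -0.20), beside 31.5% and 20.0% of all tested genes. At 2N 11 were lower (32.4%) and 2 higher (5.88%; median -0.07), beside 17.1% and 11.4%. HSPA13, an HSP70 relative (-0.51 ± 0.08), and CREB3L2, a membrane-bound factor of the ER and Golgi (-0.46 ± 0.05), showed the largest falls at 4N. OS9, a lectin of ER-associated degradation (0.37 ± 0.05), and ARMCX3 (0.35 ± 0.06) showed the largest rises. ARMCX3 was on the list but encodes a protein of the mitochondrial outer membrane. At 2N the largest falls were in DERL3 (-0.38 ± 0.08), a degradation channel protein, and PDIA3 (-0.23 ± 0.05), a disulfide isomerase. Between the control groups 6 were higher in 4N (17.6%) and 2 lower (5.88%), both below the 23.9% and 13.2% of all tested genes. After Anillin siRNA ATF6B, a relative of ATF6, was the sole call between 4N and 2N (0.19 ± 0.04, adjusted p = 0.0188).

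Whether the siRNA change depended on DNA content was tested directly by the interaction, the change at 4N less the change at 2N. It passed in 14 of 39 members, 5 of them positive and 9 negative, against 4.93% and 10.7% of all tested genes, where 31.5% of the calls were positive and 41.5% with quantile scaling. All 8 G2 and mitosis genes had a negative interaction and all 4 p53 targets a positive one, and their part in the members' interactions was not tested. The ATF4 arm held 13 of the 14, with a median interaction of -0.24, and XBP1 was the only call in the ER arm, where the median was -0.00 and that over all genes -0.04. Among the synthetases 4 of 20 passed, all negative. Negative values came with high levels in control 4N for ATF4, ASNS, PSAT1, MTHFD2, SLC7A11, CHAC1, CEBPG and ATF5. Of these, SLC7A11 passed the filter through control 4N alone. Positive values came with a level in control 2N (DDIT3), control 4N (VEGFA) or Anillin 2N (DDIT4) that stood apart from the other groups, and in SESN2 and CEBPB with a rise at 4N larger than the change at 2N.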

How the data were processed

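RNA-seq of 12 libraries was deposited by the authors as 1 table of RPKM for 57773 gene identifiers. CASAVA 1.8.2, TopHat2, edgeR and hg19 are named without a role, per the submitters' processing notes, and how genes were counted is not given in the sources used here. The labels' protocols give a stranded mRNA kit and also ribo-depleted RNA. The deposited RPKM of the 38571 genes above 0 were read as whole numbers of reads (tolerance 0.01) divided by a length and a scaled library total, so depth could be recovered. The scaled total was 0.9508 to 0.9615 times the reads in control 4N and 1.011 to 1.039 times in Anillin 4N. This raises control 4N relative to Anillin 4N, and the fits on recovered reads used the same totals. For 29239 genes the length was the GENCODE 29 span. For 9332 it was a common divisor chosen to make reads whole, so wholeness there is no check. Among the 6523 of these above 0 in all libraries, 100% gave a whole length. Of the identifiers 5435 have no name.

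Genes with at least 0.5 RPKM in at least 3 libraries (12892) were tested by limma-trend (limma 3.58.1, R 4.3.3) on log2(RPKM + 0.5), a scale that understates changes of low genes, with 1 mean per group over all 12 libraries. Tests were two-sided, with Benjamini-Hochberg adjustment over all genes and a threshold of 0.05. Changes are log2 ± SE and levels mean ± SD. Percent changes compare group means of RPKM without the added 0.5, so for low genes they exceed the log2 changes printed beside them. The alternatives were limma-voom or log2 RPM on recovered reads (at least 10 in 3 libraries, 22404 genes), pseudocounts 0.1 and 1, no filter or 1 RPKM, quantile and median-of-ratios scaling, fitting only the groups compared, and leaving out each library. On simulated reads for Anillin 4N against control 4N, the fit recovered 66% of 94 changes of 1.5-fold and 87.8% of 98 changes of 2-fold. Of its calls 3.27% were false. The simulation changed few genes and gave all genes the same spread, unlike these data, so it does not show how many changes were missed here. Libraries of a group differed by a chi-square per degree of freedom of 2.38 to 14.5, more than sampling noise, and each counted as 1 sample. Coordinates are GENCODE 29 on GRCh38, a later build than hg19. Motif counts over any listed start of a gene were chosen after a count on its first listed start had been seen.

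The members, arms and lists were chosen with earlier results of these data known. Every member is accounted for. Per-library values are given for the 8 per arm with the largest log2 change in any pairwise comparison, the regulators and sensors ATF4, DDIT3, XBP1, HSPA5, ERN1 and ATF6, and SESN2, which was added after its values were seen. Of other lists up to 2 genes with the largest called rise and fall per comparison are named, and MARS1 also for its overlap. Some genes that this rule would name are not reported here.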

Additional observations from a re-analysis of the deposited data

Results flagged for a closer look

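The siRNA change differed between 4N and 2N cells by the interaction test (limma-trend, adjusted p under 0.05) in 14 members. The interaction log2 changes were -0.61 ± 0.08 for PSAT1 (adjusted p = 9.39e-04), -0.61 ± 0.08 for MTHFD2 (adjusted p = 0.00136), -0.56 ± 0.12 for CHAC1 (adjusted p = 0.0146) and -0.46 ± 0.07 for ATF4 (adjusted p = 0.00257). They were -0.45 ± 0.05 for CEBPG (adjusted p = 4.41e-04), -0.32 ± 0.04 for ASNS (adjusted p = 0.00119) and, in the positive direction, 0.49 ± 0.07 for VEGFA (adjusted p = 0.00229) and 0.46 ± 0.10 for DDIT3 (adjusted p = 0.0131). These 8 passed in every alternative run.

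The other 6 did not. DDIT4, at 0.50 ± 0.12 (adjusted p = 0.0186), was lost without library 1 of control 4N (adjusted p = 0.0503). SLC7A11, at -0.24 ± 0.06 (adjusted p = 0.0187), was lost without library 3 of control 4N (adjusted p = 0.0508). SESN2, at 0.26 ± 0.06 (adjusted p = 0.0229), was lost without library 1 of control 4N or library 1 of Anillin 2N (adjusted p = 0.0534 to 0.0600). CEBPB, at 0.52 ± 0.14 (adjusted p = 0.0302), was lost without library 1 or 3 of control 2N, library 1 or 2 of control 4N, library 1 or 2 of Anillin 2N or library 1 or 3 of Anillin 4N (adjusted p = 0.0552 to 0.0698). The CEBPB call was also lost without the filter (adjusted p = 0.0721). ATF5, at -0.42 ± 0.12 (adjusted p = 0.0415), was lost without library 1 or 3 of control 4N or any single Anillin library (adjusted p = 0.0532 to 0.101), and also without the filter. XBP1, at -0.18 ± 0.05 (adjusted p = 0.0462), was lost without any single library other than library 3 of Anillin 2N and library 2 of Anillin 4N (adjusted p = 0.0630 to 0.0999). It was also lost on reads (adjusted p = 0.0559) and with quantile and median-of-ratios scaling. Over its losses, in 14 of 20 settings, the adjusted p reached 0.611.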

How the results depend on the processing

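The counts of called members stayed within 1.5 times their value in every alternative except the following, whose cause was not tested. At 2N 1 member in place of 2 was higher with the siRNA at a filter of 1 RPKM, which leaves 32 members. Between the control groups 14 in place of 7 were lower in 4N with quantile scaling. Between Anillin 4N and Anillin 2N 4 in place of 2 were higher on recovered reads with voom or log2 RPM, 5 in place of 3 lower with quantile scaling and 1 when those groups alone were fitted. Leaving out each library gave 1 to 2 higher there (1 without library 2 of either group) and 1 to 3 lower (1 without library 1 or 2 of Anillin 2N or library 1 or 3 of Anillin 4N). The positive interactions numbered 2 to 5 in place of 5 (2 without library 1 of control 4N, 3 without library 1 of Anillin 2N). Calls that held in every alternative were 24 of 30 and 17 of 22 for the siRNA at 4N and 2N, 15 of 17 and 2 of 5 for 4N against 2N with control and Anillin siRNA, and 8 of 14 interactions. No called change turned its sign. MANF, not called between the control groups, went to -0.14 with quantile scaling and was called there. In 109 further cases a value that passed in neither setting changed sign, 67 of them on leaving out a library, 27 with quantile scaling, 14 with median-of-ratios scaling and 1 with voom, with sizes up to 0.14.

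The shares of higher calls over all genes under other scalings stand beside each comparison. Median-of-ratios and quantile scaling moved the median of all genes by no more than 0.07. Counting motifs on the first listed start gave CARE in 4 of 19 ATF4-arm genes (3.67% of all genes) and ERSE in 6 of 18 ER-arm genes (0.0806%). No paired analysis was possible because the sample numbers differ in every group and tie no library to another. A length-based RPKM and 3 libraries a group limit changes of lowly counted members such as CHAC1 and TRIB3.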

Other observations

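Among the control libraries, library 2 of control 2N and library 2 of control 4N stood apart in the same direction in some genes. Those genes were picked after the values were seen. Over all genes library 2 also differed most from the others in both control groups by the chi-square given above, which has no direction. Whether the 2 libraries share a cause was not tested. The labels number these samples 11 and 14 and do not tie them to each other. SLC7A5 was at 5.08, 4.05 and 5.17 RPKM in libraries 1, 2 and 3 of control 2N and at 5.42, 4.44 and 5.57 in those of control 4N. SHMT2 was at 23.4, 19.8 and 24.1 RPKM in control 2N and 33.3, 28.1 and 32.4 in control 4N. For both genes library 2 was the lowest of its group. HERPUD1 was at 11.5, 13.5 and 13.1 RPKM in control 2N and 8.13, 9.55 and 8.54 in control 4N. DNAJB9 was at 6.75, 8.54 and 7.43 RPKM in control 2N and 4.85, 6.35 and 5.40 in control 4N. For these genes library 2 was the highest of its group. Other members went opposite ways. DDIT4 was lowest in library 2 of control 2N (41.8 RPKM) and highest in library 2 of control 4N (48.5). CALR (222 and 209 RPKM) and CANX (15.1 and 14.2) were highest in the former and lowest in the latter. How many members went each way was not counted.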
